A study of Mus musculus with 39 samples.

Results

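The RNAs described here encode the aminoacyl-tRNA synthetases of mouse liver. They were followed by ATLAS-Seq, in which a tissue homogenate is spread over a sucrose gradient and the RNA of each fraction is sequenced. The members were 38 given gene symbols, all of them found among the 13230 genes that both gradient tables listed. Of the 38, 20 encode cytosolic enzymes or their subunits, 2 encode scaffold proteins of the cytosolic multisynthetase complex (Aimp1 and Aimp2), and 16 encode mitochondrial enzymes with the suffix 2. The first 22 were treated as the cytosolic class and the last 16 as the mitochondrial class. All 38 also passed the filter on low values (mean of at least 1 TPM) that left 11754 genes for testing.

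Livers came from wild type FVB female mice with no treatment, and the ages were not given in the sources used here. Each of the 2 gradients came from a different mouse. The homogenate was made without detergent, cleared of nuclei and run over 10-50% sucrose. Gradient 1 contributed 17 fractions (4 to 19, and 21) and gradient 2 contributed 22 (3 to 24), with the lowest number at the lightest end. For testing, 3 zones of 4 fractions were averaged in each gradient: light (fractions 4 to 7), middle (10 to 13) and dense (16 to 19). The 2 gradients were therefore the replicates of every test (n = 2 per zone), and neighbouring fractions of a gradient were not.

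An aminoacyl-tRNA synthetase joins an amino acid to its matching tRNA, the step that fixes the reading of the genetic code. Cells keep separate sets for the cytosol and for the mitochondrial matrix. Both sets are encoded in the nucleus and made on cytosolic ribosomes, and the mitochondrial enzymes are then imported, usually by an N-terminal presequence that is rich in arginine and poor in acidic residues. Several cytosolic enzymes are held together by scaffold proteins in the multisynthetase complex. Kars and Gars each encode both the cytosolic and the mitochondrial form of their enzyme. Liver consumes and makes amino acids and secretes large amounts of protein, so charged tRNA is in constant use there.

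The start of the coding sequence carries the presequence, and the classes differ there in their codons. The first 10 codons of 12 members follow, 5′ to 3′, with the arginine codons in capitals, because these members recur in the results. They include 4 pairs that serve the same amino acid, a mitochondrial enzyme that peaked in the middle of the gradient (Cars2), the complex member with the lowest change (Qars) and both dual genes.
Aars: atggatgccactttaacagcaCGAgagatc
Aars2: atggcggtggcgttggctgccgcagccggt
Sars: atggtgctggacctggatttgtttCGGgtg
Sars2: atggctgcgtccatggcgCGGctttggtgg
Tars: atgtcgcaggagaaggctagcagcccttcg
Tars2: atgggtctctgtctgAGGtggCGCCGGctt
Wars: atggcagacatgcccagtggcgagtcctgc
Wars2: atggcgctgttctctgtgCGGaaggccCGT
Cars2: atgctgCGGgcgCGCgggcctgggcccggc
Qars: atggctactccagattcgctagcgctgttc
Kars: atggccacgctgcaggagagtgaagtcaaa
Gars: atgccctgtctgctcccctcgctgctcAGA

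These stretches were read from the reference transcripts of the mm10 build, and each lies within 1 coding exon. Wars2 starts in exon 1 at chr3:99141099-99141128 on the plus strand, and Cars2 in exon 1 at chr8:11550648-11550677 on the minus strand. The Sars2 start lies in exon 1 at chr7:28742016-28742045 (plus strand), and that of Tars2 in exon 1 at chr3:95754809-95754838 (minus strand). Qars starts in exon 1 at chr9:108508083-108508112 (plus strand), and Wars in exon 2 at chr12:108888457-108888486 (minus strand). Aars starts in exon 2 at chr8:111036930-111036959 (plus strand) and Aars2 in exon 1 at chr17:45506854-45506883 (plus strand). The other starts all lie in exon 1, that of Sars at chr3:108445103-108445132 (minus strand) and that of Tars at chr15:11399510-11399539 (minus strand). For the dual genes the positions are chr8:112011239-112011268 on the minus strand (Kars) and chr6:55038042-55038071 on the plus strand (Gars). Over the first 30 codons, the 16 mitochondrial members held a median of 4 arginine codons (range 3 to 7), against a median of 2 in the 22 cytosolic members (range 0 to 8). The upper value came from Yars, whose reference model begins upstream of the usual start. Acidic codons (aspartate and glutamate) had a median of 0.5 in the mitochondrial class (0 to 3) and 5 in the cytosolic class (0 to 7). Gars, whose reference model starts with the mitochondrial form, had 3 arginine and 0 acidic codons. The model of Kars starts with the cytosolic form and had 2 arginine and 6 acidic codons.

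The deposited values were TPM, transcript abundances scaled to a total of 1000000 per library, which give the share of a transcript in its own fraction and keep no depth. A higher TPM in the dense zone therefore means a larger share of the RNA there, not a larger amount. All fractions of a gradient came from the same homogenate, in which the RNAs of all cell types were mixed. Pearson's R over genes was 0.943 to 0.974 between libraries of the same fraction, and 10532 to 12558 genes exceeded 1 TPM in a library. Hepatocyte markers (7 of 7 listed) summed to 26587 to 60564 TPM in the light zone, 7481 to 15193 in the middle zone and 9043 to 21786 in the dense zone. The lists for other liver cells were far lower. Kupffer cell markers (5 of 5) summed to 112 to 163 TPM in the light zone and 39.5 to 51.0 in the dense zone, endothelial markers (5 of 5) to 34.3 to 70.2 and 16.6 to 35.2, and stellate cell markers (5 of 5) to 31.9 to 77.0 and 9.79 to 20.2. Erythroid markers (3 of 5) summed to 258 to 496 TPM and 66.4 to 106, and cholangiocyte markers (4 of 5) to 3.09 to 8.85 and 4.85 to 9.43. These sums moved with the zones, and their part in the results below was not tested.

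Synthetase RNAs took a larger share of the RNA in the dense zone than in the light zone in both classes, and the cytosolic class by more. Of the 22 cytosolic members, 20 were higher in the dense zone and 0 were lower. The median change was 2.26 on the log2(TPM + 1) scale, with 2.32 in gradient 1 and 2.09 in gradient 2. Of the 16 mitochondrial members, 12 were higher and 1, Wars2, was lower, with a median of 1.08 (1.21 and 0.92 in the 2 gradients). Calls rest on limma with an adjusted p (Benjamini-Hochberg over all genes tested) under 0.05. Among all genes the same test called 22.3% higher and 39.6% lower, and the median change was -0.43. At an unadjusted p under 0.05 the number of cytosolic members lower in the dense zone was also 0, beside 4981 of 11754 genes.

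The 12 cytosolic enzymes outside the complex formed the most uniform group. All 12 were higher in the dense zone (1.52 to 2.63, median 2.30), beside 22.3% of all genes. Aars, which charges alanine tRNA, averaged 54.4 TPM in the light zone of gradient 1, 176 in the middle and 359 in the dense zone. In gradient 2 it averaged 54.1, 147 and 287 TPM. The 4 dense fractions of each gradient all lay above its 4 light fractions, whose highest value was 86.1 TPM in gradient 1 and 79.2 in gradient 2. The change was 2.63 ± 0.18 (SE, n = 2 gradients, limma adjusted p = 0.000324). Cars, for cysteine, averaged 10.1, 33.5 and 63.5 TPM in the light, middle and dense zones of gradient 1. The corresponding averages in gradient 2 were 8.36, 24.1 and 44.8 TPM, a dense-over-light change of 2.49 ± 0.26 (limma adjusted p = 0.000734). Zone values of Cars did not overlap within a gradient.

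Hars, the histidine enzyme, peaked earlier than these. It averaged 18.4, 95.9 and 112 TPM in the 3 zones of gradient 1 and 22.2, 97.5 and 96.7 TPM in gradient 2. The dense and middle zones of Hars overlapped in both gradients. Its highest fraction was 15 in each, with 150 and 136 TPM, and it then declined to 92.3 TPM in fraction 21 of gradient 1 and 66.2 TPM in that of gradient 2. At the low end of the group were Nars (asparagine), Sars (serine) and Farsb, the beta subunit of the phenylalanine enzyme. Nars rose from 70.2 TPM in the light zone to 203 in the dense zone of gradient 1 and from 71.2 to 198 in gradient 2 (change 1.52 ± 0.14, limma adjusted p = 0.000587). Sars rose from 30.5 to 111 TPM and from 22.2 to 56.2 TPM (1.62 ± 0.40, limma adjusted p = 0.0145). Farsb rose from 14.6 to 67.0 TPM and from 17.1 to 63.4 TPM (2.02 ± 0.17, limma adjusted p = 0.000464). Nars had the highest light-zone share of this group in both gradients, and this sets it apart from Farsb, which was low there. The remaining members changed by 2.37 (Farsa, the alpha subunit for phenylalanine), 2.33 (Vars, valine), 2.31 (Tars, threonine), 2.29 (Gars, glycine), 2.27 (Yars, tyrosine) and 2.25 (Wars, tryptophan).

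**Figure D1:**
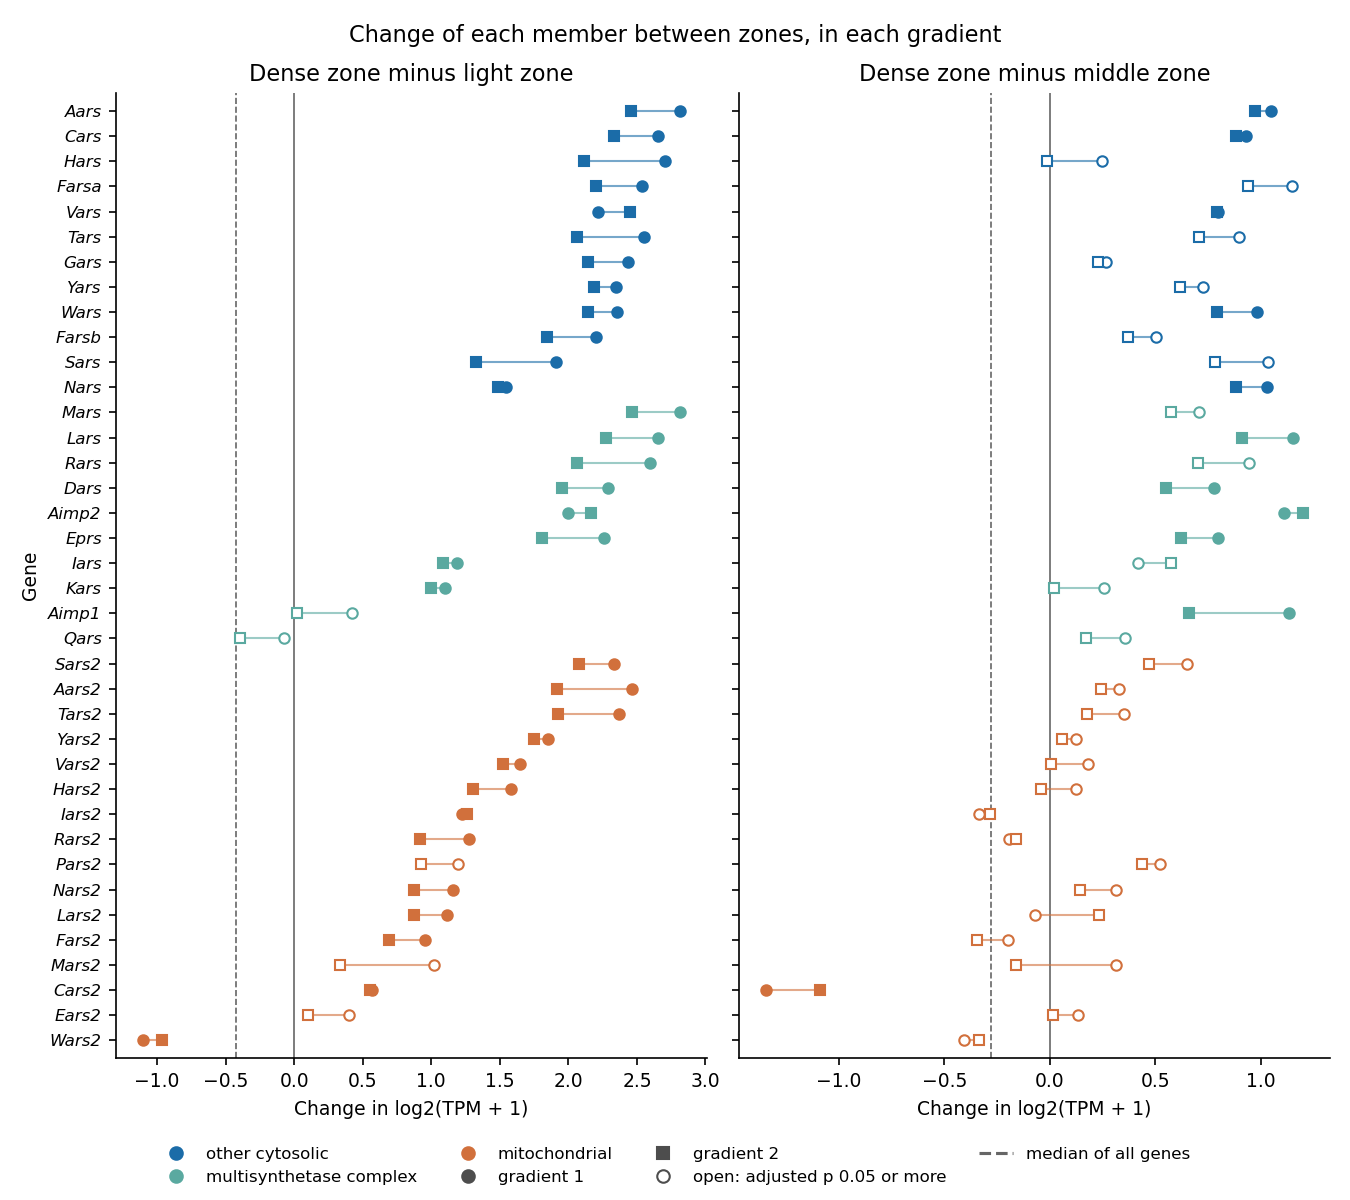
Each row is 1 gene, and the x axis gives its change in log2(TPM + 1) between 2 zones. Circles are gradient 1 and squares gradient 2, filled where limma gave an adjusted p under 0.05, and the dashed line is the median of all 11754 genes (-0.43 for dense minus light, -0.28 for dense minus middle). Most cytosolic members lie at 2 or above in the left panel, whereas Qars and Aimp1 lie near 0 and Wars2 near -1.

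The multisynthetase complex was less uniform, with changes from -0.24 to 2.64 among its 10 members. Its members called higher numbered 8, beside 22.3% of all genes, with a median change of 2.06 over all 10. Mars, the methionine enzyme, averaged 19.3, 80.5 and 130 TPM in the 3 zones of gradient 1 and 18.9, 68.7 and 102 TPM in gradient 2 (dense minus light 2.64 ± 0.19, limma adjusted p = 0.00033). The leucine enzyme Lars averaged 9.51, 27.9 and 62.5 TPM, and 12.2, 32.2 and 61.1 TPM in gradient 2 (2.46 ± 0.20, limma adjusted p = 0.000405). Rars, for arginine, averaged 13.8, 45.9 and 88.5 TPM and then 13.4, 36.2 and 59.1 TPM (2.33 ± 0.25, limma adjusted p = 0.000795). For these 3 RNAs the zones followed the same order, light below middle below dense, in both gradients. Dars (aspartate, 2.12), Aimp2 (scaffold, 2.08) and Eprs (a single protein with the glutamate and proline activities, 2.03) changed by nearly as much. Iars, for isoleucine, changed by 1.13.

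Qars, the glutamine enzyme, did not follow. Its fractions 4 to 7 held 32.6, 57.6, 96.0 and 66.2 TPM in gradient 1 and 39.5, 69.2, 85.6 and 65.5 TPM in gradient 2, so its highest value was in fraction 6 of each gradient. In the dense zone it held 54.0 to 57.8 TPM in gradient 1 and 44.2 to 52.3 in gradient 2, within the range of the light fractions. Dense over light, Qars changed by -0.24 ± 0.16 (limma adjusted p = 0.246). Middle fractions were lower than the light zone (-0.50 ± 0.16, limma adjusted p = 0.0482).

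Aimp1, a scaffold of the complex, had a minimum in the middle of the gradient. It held 59.1, 56.9, 81.1 and 55.0 TPM in fractions 4 to 7 of gradient 1 and 68.1, 62.7, 79.5 and 53.0 TPM in gradient 2. Fractions 10 to 13 held 32.4, 35.9, 37.7 and 45.4 TPM, and 33.9, 43.1, 45.4 and 44.1 TPM. Both sets of middle values lie below every light fraction of the same gradient. Dense fractions rose again to 76.4, 83.8, 94.2 and 80.6 TPM in gradient 1 and to 52.5, 75.7, 71.3 and 66.9 TPM in gradient 2. The middle zone was lower than the light zone by limma (-0.68 ± 0.18, adjusted p = 0.0252), and the dense zone was higher than the middle (0.90 ± 0.18, adjusted p = 0.0177). Between the dense and light zones the change was 0.22 ± 0.18 (limma adjusted p = 0.325). The Aimp1 locus overlaps Tbck on the other strand and that of Mars overlaps Ddit3. Further members that overlap a gene on the other strand include Aimp2 (Eif2ak1), Wars (Wdr25), Cars2 (Naxd) and Ears2 (Ubfd1), and Aars overlaps Exosc6 on its own strand. The library kit was a stranded one, but whether the counting used strand was not given in the sources used here.

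Kars, the lysine enzyme and a dual gene, rose early and differed little between the middle and dense zones. It averaged 62.1, 109 and 130 TPM in gradient 1 and 64.8, 126 and 127 TPM in gradient 2. Dense over light it changed by 1.05 ± 0.15 (limma adjusted p = 0.00227), and dense over middle by 0.14 ± 0.15 (adjusted p = 0.563). Gars, the other dual gene, averaged 24.4, 102 and 123 TPM in gradient 1 and 26.4, 97.2 and 113 TPM in gradient 2. Its dense-over-light change was 2.29 ± 0.16 (limma adjusted p = 0.000321), and its dense-over-middle change 0.25 ± 0.16 (adjusted p = 0.303). Kars and Gars thus shared small steps from the middle to the dense zone while differing from light to dense.

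**Figure D2:**
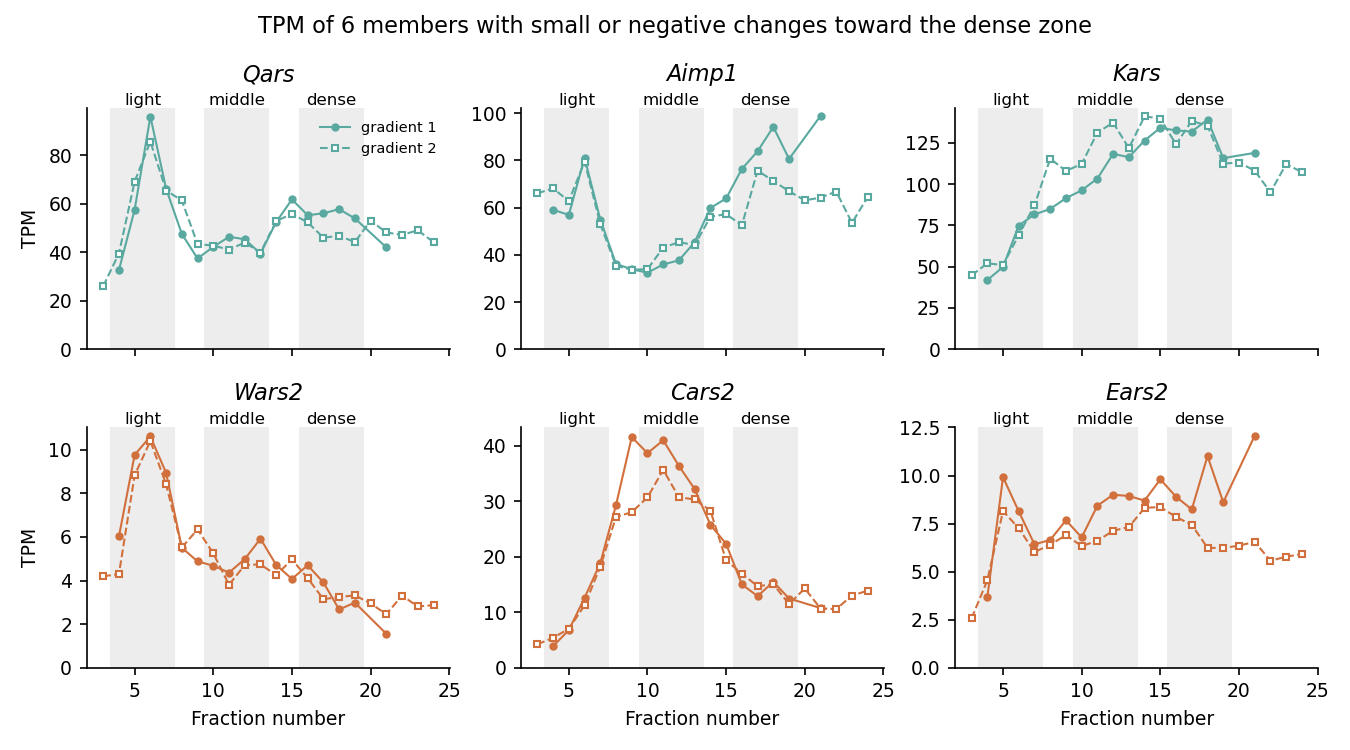
TPM (y axis) in each fraction (x axis) of gradient 1 (filled circles, solid line) and gradient 2 (open squares, dashed line) for the 3 complex members and the 3 mitochondrial members of mean TPM of at least 5 with the lowest dense-over-light change. Qars and Wars2 are highest in fraction 6, Aimp1 is lowest in fractions 9 and 10, and Cars2 is highest in fractions 9 and 11.

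Among the mitochondrial enzymes, the changes ranged from -1.03 to 2.21. Sars2 averaged 7.08, 23.9 and 38.2 TPM in the zones of gradient 1 and 6.81, 21.9 and 30.2 TPM in gradient 2 (dense minus light 2.21 ± 0.20, limma adjusted p = 0.000502). Aars2 averaged 6.96, 27.9 and 35.1 TPM, and 5.82, 19.8 and 23.6 TPM in gradient 2 (2.19 ± 0.27, limma adjusted p = 0.00128). Tars2 averaged 9.72, 40.1 and 50.9 TPM and then 9.50, 31.6 and 35.8 TPM (2.15 ± 0.24, limma adjusted p = 0.000907). These 3 changes lie within the range of the cytosolic enzymes. Intermediate values belonged to Yars2 (1.80), Vars2 (1.59), Hars2 (1.44), Iars2 (1.24), Rars2 (1.10), Nars2 (1.02), Lars2 (0.99) and Fars2 (0.82), all 8 of them called higher. With zone borders moved 1 fraction inward the call of Lars2 was lost (0.54, limma adjusted p = 0.071).

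Wars2, which charges tryptophan tRNA in the matrix, was the only member of the 38 called lower in the dense than in the light zone. It held 6.0, 9.8, 10.6 and 8.9 TPM in fractions 4 to 7 of gradient 1 and 4.3, 8.8, 10.4 and 8.4 TPM in gradient 2. In fractions 16 to 19 it held 4.7, 3.9, 2.7 and 3.0 TPM, and 4.1, 3.1, 3.2 and 3.3 TPM. Every dense fraction was below every light fraction of the same gradient, although only narrowly so in gradient 2. The change was -1.03 ± 0.19 (limma adjusted p = 0.00548). Wars2 is also a low RNA, with a mean of 5.31 TPM in gradient 1 and 4.72 TPM in gradient 2.

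Cars2, for cysteine, peaked in the middle. It rose from 3.9 to 18.8 TPM across fractions 4 to 7 of gradient 1, reached 41.5 TPM in fraction 9, and fell to 15.0, 12.9, 15.5 and 12.5 TPM in fractions 16 to 19. In gradient 2 it rose from 5.4 to 18.2 TPM, reached 35.6 TPM in fraction 11, and fell to 17.0, 14.7, 15.1 and 11.5 TPM. Light and dense fractions therefore overlapped in both gradients. The dense-over-light change was 0.56 ± 0.18 (limma adjusted p = 0.0366), but with zone borders moved 1 fraction inward it was 0.15 (adjusted p = 0.447). From the middle to the dense zone Cars2 fell by 1.22 on the log2 scale (SE 0.18, limma adjusted p = 0.00841).

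Ears2, Mars2 and Pars2 were not called between the dense and light zones. Ears2, for glutamate, averaged 7.03, 8.29 and 9.19 TPM in the zones of gradient 1 and 6.49, 6.85 and 6.94 TPM in gradient 2 (0.25 ± 0.22, limma adjusted p = 0.359). Mars2 averaged 2.32 to 3.29 TPM over a gradient, and its change was 0.68 ± 0.29 (limma adjusted p = 0.0881). Pars2 averaged 3.20 to 6.64 TPM, with a change of 1.06 ± 0.55 (limma adjusted p = 0.144). With the gradient as a block, both Mars2 (adjusted p = 0.0245) and Pars2 (adjusted p = 0.00102) passed. After quantile normalization all 3 were called higher, Ears2 at 0.75 (adjusted p = 0.0135), Mars2 at 1.34 (0.00615) and Pars2 at 1.69 (0.0277), and 15 of 16 mitochondrial members were higher, beside 30.7% of all genes in that fit. On the log2(TPM + 1) scale, changes of such low RNAs are understated.

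From the light to the middle zone, the classes rose by similar amounts. Of the cytosolic members, 19 were higher in the middle zone and 2 (Qars and Aimp1) were lower, with a median change of 1.44 (1.48 and 1.36 in the 2 gradients). Of the mitochondrial members, 12 were higher and 1 (Wars2, -0.66, limma adjusted p = 0.0346) was lower, with a median of 1.34 (1.46 and 1.21). Over all genes 23.5% were higher and 24.1% lower by the same test, and the median was 0.05. Hars (2.29), Gars (2.04) and Mars (2.00) had the largest cytosolic steps, and Aars2 (1.91), Tars2 (1.88) and Cars2 (1.78) the largest mitochondrial ones. Sars was not called (0.71, limma adjusted p = 0.189), and neither were Ears2, Mars2 and Pars2. With the gradient as a block, Sars (adjusted p = 0.0115), Mars2 (0.0406) and Pars2 (0.0116) passed. The Qars call was lost with a pseudocount of 0.1 at nearly the same change (-0.51, adjusted p = 0.051), and that of Aimp1 with the inner zone borders (-0.48, adjusted p = 0.0647). Inner borders also ended the calls of Iars (0.48, limma adjusted p = 0.0554) and Lars2 (0.45, adjusted p = 0.141). Nars lost its call after quantile normalization (0.36, limma adjusted p = 0.0707) and Nars2 without the 50 most abundant genes (0.68, adjusted p = 0.0518), so that 18 cytosolic or 11 mitochondrial members were higher in these fits. Over all genes they called 3163 of 11754 and 2481 of 11704 higher.

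The classes parted beyond the middle of the gradient. From the middle to the dense zone, 10 of 22 cytosolic members were higher and 0 lower, with a median change of 0.80, while 0 of 16 mitochondrial members were higher and 1 (Cars2) was lower, with a median of 0.08. The class medians were 0.85 and 0.68 in the 2 gradients for the cytosolic members, and 0.13 and 0.0079 for the mitochondrial ones. The same limma test called 4.79% of all genes higher and 22.5% lower, and their median was -0.28. The change was above 0 in both gradients for 21 of 22 cytosolic and 8 of 16 mitochondrial members. Among all 11754 genes it was above 0 in both for 3106 and below 0 in both for 6780. At an unadjusted p under 0.05, 16 cytosolic members were higher and 0 lower, and 1 mitochondrial member was higher and 1 lower, beside 8.87% of all genes higher and 31.5% lower.

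The 10 cytosolic RNAs called were those of Aimp2 (1.16), Lars (1.03), Aars (1.01), Nars (0.96), Cars (0.91), Aimp1 (0.90), Wars (0.89), Vars (0.80), Eprs (0.71) and Dars (0.66). Of these, 5 belong to the complex. Of the rest, Hars (0.12), Kars (0.14), Gars (0.25) and Qars (0.26) had the smallest steps. The count depended on the fit, and Cars lost its call without the filter on TPM (0.91, limma adjusted p = 0.0536) and with inner borders (0.89, adjusted p = 0.0548), which left 9 in each. With the gradient as a block, Farsa, Farsb, Iars, Mars, Rars, Sars, Tars and Yars passed too and 18 cytosolic members were higher, against 14.1% of all genes, and 39.3% of all genes were lower. In that fit Sars2 (0.56) and Pars2 (0.48) were higher among the mitochondrial members, and Cars2, Wars2 (-0.37) and Iars2 (-0.31) were lower. The 4 cytosolic members that the block left uncalled were Hars, Kars, Gars and Qars.

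These counts were read against a shift of all genes, which depended on the scaling. After quantile normalization the median of all genes moved from -0.43 to -0.05 for dense minus light and from -0.28 to 0.03 for dense minus middle. The share of calls that were higher moved from 36.0% to 50.6% and from 17.5% to 43.0%. Without the 50 most abundant genes the median of all genes for middle minus light moved from 0.05 to -0.07. Between the dense and middle zones, the quantile fit gave medians of 0.98 for the cytosolic class and 0.42 for the mitochondrial class, with 16 and 1 members higher, beside 10.3% of all genes. Fars2 (-0.27) and Rars2 (-0.18) changed sign in that fit, to 0.03 and 0.18, and passed the test in neither.

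**Figure D3:**
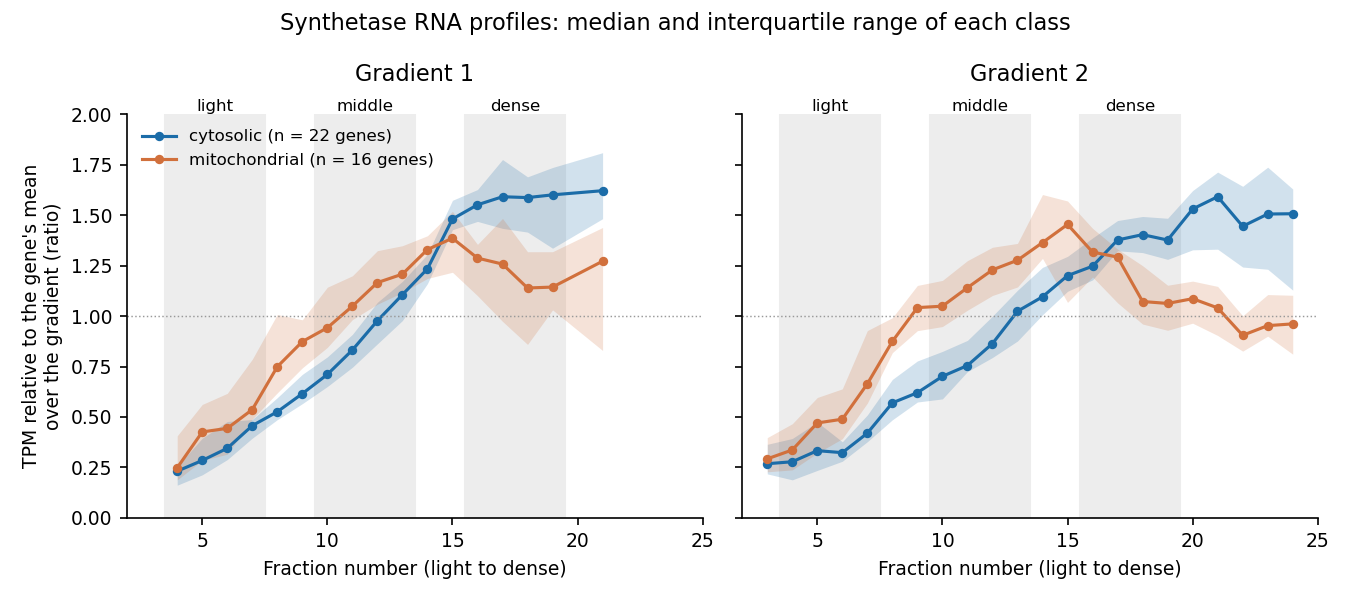
Lines show the median over the genes of a class of TPM divided by the gene's own mean over the gradient (y axis, a ratio) in each fraction (x axis), bands show the interquartile range, and grey marks the zones. The cytosolic class stays between 1.38 and 1.62 from fraction 17 onward, whereas the mitochondrial class peaks in fraction 15, with ratios of 1.39 (gradient 1) and 1.45 (gradient 2).

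Across all fractions, the class profiles crossed between fractions 14 and 17. Relative to a gene's mean over its gradient, the median cytosolic member stood at 0.23 in fraction 4, 1.48 in fraction 15 and 1.62 in fraction 21 of gradient 1. In gradient 2 it stood at 0.28, 1.20 and 1.59 in the same fractions and at 1.51 in fraction 24. The median mitochondrial member stood at 0.25, 1.39 and 1.27 in gradient 1 and at 0.34, 1.45 and 1.04 in gradient 2, where it was 0.96 in fraction 24. The mitochondrial median was thus above the cytosolic one in every fraction from 4 to 14 and below it from fraction 17 onward, in both gradients. Each gene was divided by its own mean, so a class that is lower in the dense fractions tends to stand higher elsewhere.

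The highest fraction was 16 or denser for 19 of 22 cytosolic members in gradient 1 and 17 in gradient 2. The same held for 8 of 16 mitochondrial members in gradient 1 and for 2 in gradient 2, where 12 peaked between fractions 10 and 15. The center of sedimentation, the mean fraction number weighted by TPM over the 17 shared fractions, had a median of 14.6 and 14.3 for the cytosolic class. It was 13.5 and 13.0 for the mitochondrial class and 11.3 for all genes in each gradient. The lowest centers were those of Wars2 (10.2 and 10.5), Qars (11.9 and 11.6) and Cars2 (11.8 and 12.0), and the highest, by the mean of both gradients, those of Farsa (15.2 and 14.8), Lars (15.1 and 14.9) and Aars (14.9 in each gradient). With log2 weights the class difference shrank, to 12.7 against 12.6.

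Profiles agreed closely between gradients for most cytosolic RNAs and less closely for several mitochondrial ones. The median Pearson's R of a member with itself in the other gradient, over 17 fractions that share their order along the gradient, was 0.971 for the cytosolic class (0.850 to 0.988) and 0.921 for the mitochondrial class (0.391 to 0.973). The lowest values were Mars2 (0.391), Lars2 (0.398), Ears2 (0.556) and Pars2 (0.639). Lars2, for leucine, reached 60.2 TPM in fraction 13 of gradient 1, and 32.8 TPM in fraction 7 of gradient 2, with the neighbouring fractions well below. Gradient 1 had a further rise in fraction 8, so that the profile was uneven in both gradients. The other 3 were among the RNAs of lowest TPM.

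Within the cytosolic class, pairs of members had a median R of 0.941 in gradient 1 and 0.896 in gradient 2. Pairs within the mitochondrial class had 0.611 and 0.591, and mixed pairs 0.711 and 0.505. In the complex the median R was 0.908 and 0.686, below the 0.954 and 0.917 among the other cytosolic enzymes. These values describe 1 gradient each and carry no test. When each member was set against the mean profile of both classes, with itself left out, 18 of 22 cytosolic members lay closer to their own class in both gradients. The 4 others were Gars, Hars and Kars, which lay closer to the mitochondrial mean in both, and Qars, which lay close to neither (R of -0.04 and -0.21 with its own class). Aimp1 is counted among the 18 although its R with its own class was 0.59 and 0.19. Gars had an R of 0.97 and 0.94 with the mitochondrial mean and 0.92 and 0.79 with the cytosolic one. For Kars these were 0.95 and 0.96 against 0.91 and 0.65, and for Hars 0.97 and 0.94 against 0.87 and 0.60. Both dual genes were thus in this set, beside Hars, whose gene lies head to head with Hars2 on the opposite strand with overlapping ends. Without a stated strand setting, reads from that overlap cannot be assigned with certainty. Of the mitochondrial members, 9 of 16 lay closer to their own class in both gradients, and Pars2 lay closer to the cytosolic mean in both. The 9 include Wars2, which followed neither mean (R of -0.75 and -0.45 with its own class).

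**Figure D4:**
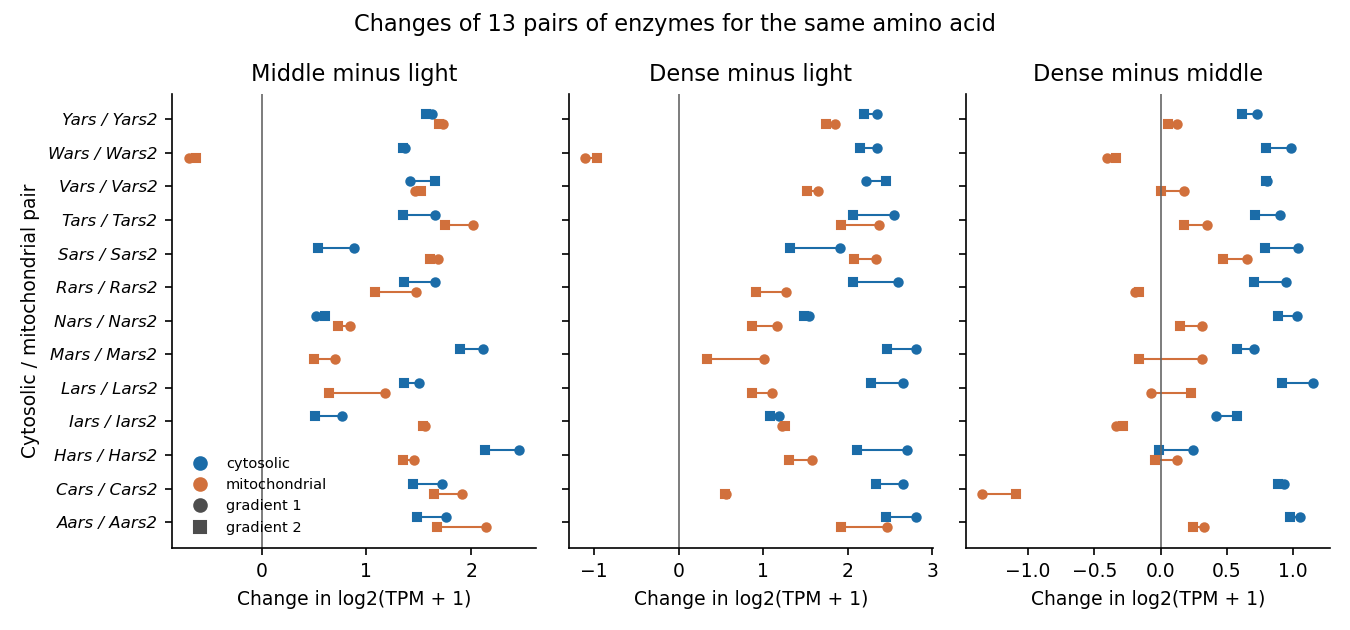
Each row is a pair of genes for the same amino acid, with the cytosolic member in blue and the mitochondrial member in orange, and the x axis gives the change in log2(TPM + 1) in gradient 1 (circles) and gradient 2 (squares). In the right panel the cytosolic member lies to the right of its partner in all 13 pairs, and in the left panel the order is mixed.

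Setting the 2 enzymes for the same amino acid side by side removed differences in the set of amino acids covered. For 13 amino acids there was 1 gene of each class. From the light to the dense zone the cytosolic member changed by more in both gradients in 11 of 13 pairs, with a median difference of 0.57 in gradient 1 and 0.81 in gradient 2. The exceptions were Iars against Iars2 (-0.11 ± 0.10, SD, n = 2 gradients) and Sars against Sars2 (-0.59 ± 0.24). From the middle to the dense zone the cytosolic member changed by more in 13 of 13 pairs, with median differences of 0.72 and 0.73. From the light to the middle zone it did so in 5 pairs, the mitochondrial member in 7, and Vars and Vars2 changed places between gradients (median differences -0.10 and -0.12).

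The widest difference from light to dense was between Wars and Wars2 (3.28 ± 0.25, SD, n = 2), whose changes had opposite signs. Wars averaged 7.73 and 42.7 TPM in the light and dense zones of gradient 1, whereas Wars2 averaged 8.83 and 3.57 TPM. In gradient 2 Wars averaged 7.51 and 34.6 TPM, and Wars2 7.98 and 3.45 TPM. These RNAs stood at like levels in the light zone and apart in the dense zone. Mars exceeded Mars2 by 1.96 ± 0.23, Cars exceeded Cars2 by 1.93 ± 0.22, and Lars exceeded Lars2 by 1.47 ± 0.10. Mars2 averaged 1.85 and 1.74 TPM in the light zones, so the log2(TPM + 1) scale understates its change and widens its difference from Mars. At the other end Tars exceeded Tars2 by 0.16 ± 0.04 and Aars exceeded Aars2 by 0.44 ± 0.14. No test was run on the differences within single pairs.

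Levels differed between the classes too. TPM corrects for length, so that genes can be set side by side, and the median of the members' mean TPM over a gradient was 59.8 and 48.0 in the cytosolic class against 22.4 and 17.8 in the mitochondrial class. Aars was the highest of all (206 and 210 TPM), followed by Tars in gradient 1 (161 TPM) and by Nars in gradient 2 (152 TPM). Iars2 was the highest mitochondrial member (56.5 and 54.1 TPM). The length of the coding sequence was weakly related to the change from light to dense over the 38 members (Spearman's rho 0.32 and 0.31) and over all genes with a length (0.10 and 0.09). For the whole transcript rho was 0.02 and -0.01 over the members and -0.17 and -0.20 over all genes with a length.

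Other genes linked to tRNA and its charging were counted by the same calls. Of 25 listed genes, all tested, 14 were higher and 1 lower in the dense than in the light zone, with a median of 0.58, beside 22.3% and 39.6% of all genes and their median of -0.43. From light to middle, 17 were higher and 0 lower, with a median of 0.98, beside 23.5% and 24.1% of all genes and their median of 0.05. The number lower was also 0 at an unadjusted limma p under 0.05 (all genes: 3340 of 11754) and with the gradient as a block (4109 of 11754). From middle to dense, 0 were higher and 8 lower, with a median of -0.27. At an unadjusted limma p under 0.05, 3 were higher and 10 lower, beside 8.87% and 31.5% of all genes. These counts depended on the fit, as did those of all genes. With the gradient as a block 4 were higher and 11 lower, beside 14.1% and 39.3% of all genes. After quantile normalization 4 were higher and 4 lower, beside 1213 and 1607 of 11754 genes. In the main fit, shares of all genes from middle to dense were 4.79% higher and 22.5% lower with a median of -0.28, so the median of the list was near that of all genes. Between the dense and light zones the block fit called 4 of the 25 lower, against 50.0% of all genes.

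Eef1e1, the third scaffold of the multisynthetase complex, rose from light to middle (1.41, limma adjusted p = 0.00412) and fell from middle to dense (-1.53, adjusted p = 0.00783), so that dense and light did not differ by the test (-0.12 ± 0.21, adjusted p = 0.637). Its profile was thus highest in the middle zone, as that of Cars2 was. In mitochondria, glutaminyl-tRNA is made by an amidotransferase with the subunits Qrsl1, Gatb and Gatc, in place of a separate glutamine enzyme. Gatb rose by 2.28 from light to dense, Qrsl1 by 1.10, and Gatc fell by 1.42 on the log2 scale (limma adjusted p = 0.000882). Thus 2 subunits of 1 enzyme rose and the other fell. Mtfmt, which formylates the initiator tRNA of mitochondria, changed by 0.07 ± 0.24 (limma adjusted p = 0.805).

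The ribosomal proteins are the other large translation families. By their medians, the mitochondrial ones rose from light to middle, as the mitochondrial synthetases did, but then fell. The cytosolic ones fell in each contrast. Mitochondrial ribosomal proteins (78 genes) had medians of 1.64 from light to middle, where 70 were higher (23.5% of all genes), and of -0.94 from middle to dense, where 49 were lower (22.5% of all genes). Against the light zone, the dense zone had 44 higher and 11 lower (17 lower with the gradient as a block, where 50.0% of all genes were lower), beside 22.3% and 39.6% of all genes. The mitochondrial synthetases had medians of 1.34 and 0.08 for the same steps, and of 1.08 from light to dense, where the mitochondrial ribosomal proteins had 0.77. Cytosolic ribosomal proteins (78 genes) had medians of -1.77, -0.84 and -2.47 for middle minus light, dense minus middle and dense minus light, and 75 were lower in the dense than in the light zone (39.6% of all genes). The cytosolic synthetases had medians of 1.44, 0.80 and 2.26 for the same contrasts, opposite in sign in each. These family differences were not tested.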

How the data were processed

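RNA of 39 sucrose fractions from 2 gradients was sequenced. The authors quantified reads with Kallisto against an mm10 RefSeq index and deposited 1 table of TPM (transcript abundance scaled to 1000000 per library) for each gradient. The submitters' processing notes name bcl2fastq 2.16.0.10 and kallisto, whose version was not given in the sources used here. Depth is unknown, so no counting interval is given. Columns with no sample numbered 0. Members and lists were chosen with earlier results of these data known. TPM was transformed as log2(TPM + 1), averaged over the 4 fractions of a zone in each gradient, and 11754 genes with a mean of at least 1 TPM were fitted with limma 3.58.1 (R 4.3.3, moderated with a trend, Benjamini-Hochberg, adjusted p under 0.05) over 6 zone means. The p-values reflect the spread between 2 mice. Zones of the same gradient share a mouse and homogenate, and gradient deviations from the zone means correlated across genes (Pearson's R 0.665 for light and middle, 0.540 for light and dense, 0.798 for middle and dense), so blocked fits are given where they change a call. In full were named, per class, the 3 members with the highest and the 3 with the lowest dense-over-light change at a mean TPM of at least 5, plus Kars and Gars. Of the pathway genes meant to be described by value, 1 is not reported here. Wars, Lars2, Mars2, Pars2 and the codon counts were described after their values were seen. Scripts (Python 3.11.15, pandas 2.3.3, NumPy 2.4.6) were tested on simulated data. For dense against light, 18.8% of genes given a log2 change of 1 and 66.2% given a change of 2 were called. A gene not called may therefore still have changed. The simulated zone means varied independently, unlike those of a gradient here. Sequences and lengths came from the GENCODE annotation of the same build. Alternatives were another pseudocount, 2 filters, the block, 2 scalings, other zone borders and each gradient alone.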

Additional observations from a re-analysis of the deposited data

How the results depend on the processing

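The direction of both class medians held in all 3 comparisons under each alternative run, but several values moved. For dense against light, the cytosolic median was 1.91 with zone borders moved inward and 2.09 to 2.32 with 1 gradient left out. The mitochondrial median was 1.34 with a mean TPM of at least 10, 1.49 after quantile normalization and 0.92 to 1.21 with 1 gradient left out. The filter at 10 TPM removed Wars2, so its call and that of the middle zone became 0 members lower. Mitochondrial members higher numbered 10 with inner borders, 14 with the block and 15 after quantile normalization. These 3 fits called 2400 of 11745, 3589 of 11754 and 3603 of 11754 genes higher. For middle against light, 1 cytosolic member in place of 2 was lower with a pseudocount of 0.1 or with inner borders. The cytosolic median was 1.33 without the 50 most abundant genes, 1.12 with inner borders and 1.36 to 1.48 with 1 gradient left out, and the mitochondrial median was 1.52 at 10 TPM, 1.07 with inner borders and 1.21 to 1.46 with 1 gradient left out. For dense against middle, cytosolic members higher numbered 18 with the replicate block, 16 after quantile normalization, 15 without the 50 most abundant genes, 13 at 10 TPM and 9 without a filter or with inner borders. In the same order, genes called higher numbered 1661 of 11754, 1213 of 11754, 780 of 11704, 618 of 7233, 523 of 13230 and 556 of 11745. Mitochondrial members higher numbered 2 with the block and 1 after quantile normalization, without the 50 most abundant genes or with inner borders, and members lower numbered 3 with the block. After quantile normalization the medians were 0.98 and 0.42, and Fars2 (0.030) and Rars2 (0.18) changed sign. With 1 gradient left out the medians were 0.68 to 0.85 and 0.0079 to 0.13. The center of sedimentation was 12.7 and 12.6 with log2 weights, 16.4 and 14.5 over all 22 fractions of gradient 2, and 14.3 to 14.6 and 13.0 to 13.5 in single gradients. Within the mitochondrial class the median R was 0.701 on log2 profiles, 0.808 at 10 TPM and 0.591 to 0.611 in single gradients. In single gradients it was 0.896 to 0.941 within the cytosolic class and 0.505 to 0.711 between the classes. Except where the filter removed a gene, the cause was not tested. The block changed no call of a member other than those named in the text. Leaving out a gradient left 1 value per zone and gave no test. TPM keeps no depth, so low RNAs such as Mars2 carry an unknown counting error, and 2 mice limit every p-value.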
